A study of Mus musculus with 14 samples.

Results

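Ifitm1, Ifitm2 and Ifitm3 encode small interferon-induced transmembrane proteins. They were followed here in natural killer (NK) cells and in a subset of cancer-associated fibroblasts called sCAFs, from mice with and without a 4T1 tumour. The 3 genes were chosen because earlier results of these data showed Ifitm genes high in NK cells from tumours, so the values of tumour NK cells against spleen NK cells chose them and are given below as a description, with no test. All 3 were listed in both deposited tables, among 10210 genes in the NK table, 12235 in the sCAF table and 9215 in both. All 3 passed the filter on low counts in the NK table, and did so through the tumour libraries.

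All animals were BALB/c mice of 8 weeks kept free of specific pathogens. The tumour-bearing animals were females with 100000 4T1-GFP cells placed in the lower left mammary fat pad. 4T1 is a single carcinoma line of the mouse mammary gland that serves as a triple-negative breast cancer model, and it carried green fluorescent protein (GFP). NK cells came from 3 spleens of healthy mice (healthy spleen NK), from 4 spleens of tumour-bearing mice (4T1 spleen NK) and from 4 tumours (tumour NK), and 3 sCAF samples came from tumours. The labels do not give the time from injection to harvest or tie a spleen to a tumour of the same mouse. NK cells were enriched magnetically and then sorted for NKp46 and CD45, without GFP, EPCAM or the lineage proteins CD3, CD31 and CD14. The sCAF gate was defined only by what the cells lack: PDPN, CD31, CD45, GFP and EPCAM. Tumours were digested with collagenase A and DNase for 20 min at 37 °C, whereas spleens were crushed and their red cells lysed on ice, so tissue and handling cannot be told apart between tumour NK and spleen NK.

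Ifitm proteins sit in the plasma membrane and in endosomal membranes, where they hinder the fusion of enveloped viruses with the cell. Their genes are classical targets of type I interferon and of interferon gamma, which act through the receptors Ifnar1, Ifnar2, Ifngr1 and Ifngr2, the kinases Jak1, Jak2 and Tyk2, and transcription factors such as Irf9. In lymphocytes Ifitm1 is also known as a surface protein, and Ifitm3 is the member best known for restricting influenza virus.

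In the GENCODE M21 annotation of GRCm38 (mm10) the 3 genes lie within 55.9 kb of chromosome 7, as protein-coding genes. Ifitm2 spans chr7:140954837-140955987 on the minus strand, Ifitm1 chr7:140967221-140969825 on the plus strand and Ifitm3 chr7:141009586-141010770 on the minus strand. Ifitm5 and Ifitm6 flank them, and Ifitm10 lies 1315 kb away on the same chromosome. A predicted gene, Gm45717, overlaps Ifitm2 on the same strand, and reads that fall in both cannot be assigned to one of them from the tables.

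The short windows below are shown because interferon-induced factors bind a DNA motif, the interferon-stimulated response element, whose core is GAAANNGAAA. The promoter table of RefSeq (GRCm38.p6; 250 bases before to 50 bases after each start site) was searched for this core on both strands, and matches are in capitals.
Ifitm2 (chr7:140955988-140956017, minus strand): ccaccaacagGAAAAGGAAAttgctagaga
Ifitm3 (chr7:141010715-141010743, minus strand): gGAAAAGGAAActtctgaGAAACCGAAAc
Isg15 (chr4:156200871-156200900, minus strand): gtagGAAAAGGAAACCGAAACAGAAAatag
The Ifitm2 window held 1 match, which began 46 bases before the RefSeq start site. Ifitm3 held 2 matches, both just after its RefSeq start site, at positions 3 and 20 counted from it. GENCODE starts Ifitm2 and Ifitm3 further upstream, so positions counted from its starts would differ. The window of Isg15, a well-known interferon-induced gene shown for comparison, held 3 overlapping matches. Of the other interferon-response genes searched, Bst2 held 2 matches, and Irf7 and Irf9 held none in their windows. The letters GAAAAGGAAA occurred in all 3 of these genes and in 0.447% of the 32851 promoters in the table, and GAAACCGAAA, present in Ifitm3 and Isg15, in 0.0548%. The core itself was found in 3.44% of those promoters. The Ifitm1 window of chr7:140967826-140968125 held no match to the core. That window is placed on 1 RefSeq start site, while GENCODE starts the gene further upstream, and other starts were not searched. A match is a run of letters and not a measured binding site.

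The libraries count the 3' ends of polyadenylated RNA, so a count was not divided by gene length. Total counts over listed genes ran from 559688 to 1966963 in the NK libraries and from 1318067 to 2230475 in the sCAF libraries. Levels of the Ifitm genes are given as CPM, counts per 1000000 over the genes listed in both tables. A library with 0 counts of a gene allows up to 3 counts, or 1.45 to 5.83 CPM. Of the variance among NK libraries, 56.4% lay on a principal component that parted tumour from spleen. The next component held 15.3% and put healthy spleen 1 and 4T1 spleens 1 and 2 on one side and the other 4 spleen libraries on the other, across the groups. NK identity was clear from all 12 NK markers in every NK library, with a summed level of 21620 to 24340 CPM of the library total in tumour NK and 28460 to 35050 CPM in the spleens. The sCAF libraries held all 22 fibroblast markers, led by Fn1 at 3049 CPM and Sparc at 1011 CPM, but Lum was at 1.05 CPM and Acta2 at 3.31 CPM. They also held epithelial genes, with Krt18 at 2515 CPM, Wfdc2 at 1855 CPM and Krt8 at 760.1 CPM, and their part in the sCAF values of the Ifitm genes was not tested.

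Ifitm1 was near the detection limit in every spleen library and clearly present in every tumour NK library. Its counts were 3, 1 and 0 in healthy spleen NK, 7, 7, 2 and 2 in 4T1 spleen NK, and 203, 69, 279 and 295 in tumour NK, replicates in order. In CPM, tumour NK libraries held 164.0, 103.0, 161.6 and 272.4, with a mean of 175.3 ± 70.63 (SD, n = 4). No spleen library exceeded 5.86 CPM, so the tumour and spleen libraries did not overlap. Summed over libraries, tumour NK held 65.3 times the 4T1 spleen level, with a 95% interval of 41.1 to 111.0 from counting error alone. The fitted log2 fold change was 5.95 (SE 0.48). Against healthy spleen NK, whose 3 libraries held 4 counts in all, the ratio was 171.0 with an interval of 66.4 to 627.0. In bulk RNA, more cells with the transcript and more transcript per cell cannot be told apart.

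Ifitm2 followed the same order at a lower level. Its counts were 2, 2 and 1 in healthy spleen NK, 6, 2, 2 and 1 in 4T1 spleen NK, and 111, 35, 201 and 167 in tumour NK. The tumour NK libraries held 89.7, 52.27, 116.5 and 154.2 CPM, with a mean of 103.2 ± 43.03 (SD, n = 4). The lowest of them stood about an order of magnitude above the highest spleen library, at 5.02 CPM. The summed ratio to 4T1 spleen NK was 65.0, with a counting interval of 36.0 to 131.0, and the fitted log2 fold change was 5.88 (SE 0.45). The summed ratio to healthy spleen NK was 82.9, with an interval of 35.3 to 256.0.

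Ifitm3, the member best known in influenza infection, had the lowest level of the 3 in tumour NK. Its counts were 0, 7 and 0 in healthy spleen NK, 4, 8, 1 and 4 in 4T1 spleen NK, and 72, 30, 163 and 96 in tumour NK. The tumour NK libraries held 58.18, 44.8, 94.44 and 88.65 CPM, with a mean of 71.52 ± 23.88 (SD, n = 4). Here too no spleen library, at most 5.12 CPM, reached the tumour range. The summed ratio was 29.5 to 4T1 spleen NK, with a counting interval of 18.2 to 51.2, and the fitted log2 fold change was 4.76 (SE 0.46). To healthy spleen NK the ratio was 41.6, with an interval of 20.0 to 104.0. Tumour NK replicate 2, the tumour library with the lowest total, was the lowest of the tumour libraries for each of the 3 genes.

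Both tumour contrasts changed many genes. Against 4T1 spleen NK, 29% of the 8471 genes tested passed in either direction and 15.8% were higher, while 16.5% were higher without overlap of the groups. In the contrast with healthy spleen NK these shares were 30.5%, 16.5% and 18.5%. All 3 Ifitm genes are among the genes without overlap in both. These contrasts chose them and share the tumour libraries, so nothing is read from that. The choice bears on the ranks of the 3 genes too, which are given only as a description. Of the genes tested, 8 had a larger fitted rise than Ifitm1 against 4T1 spleen NK, 9 than Ifitm2 and 25 than Ifitm3. The size of these fold changes rests on a handful of spleen counts. The log2 fold change of Ifitm2 against 4T1 spleen NK was 6.62 without 4T1 spleen 1, the one spleen library with 6 Ifitm2 counts. Against healthy spleen NK, that of Ifitm1 went from 7.25 to 8.75 without healthy spleen 1, and that of Ifitm3 from 5.28 to 9.59 without healthy spleen 2, which held all 7 counts of that group. Within the sides of the spleen split, the log2 fold changes of Ifitm1, Ifitm2 and Ifitm3 against 4T1 spleen NK were 7.09, 6.73 and 5.52 with 4T1 spleens 3 and 4 alone, and that of Ifitm1 was 5.28 with 4T1 spleens 1 and 2 alone.

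**Figure D1:**
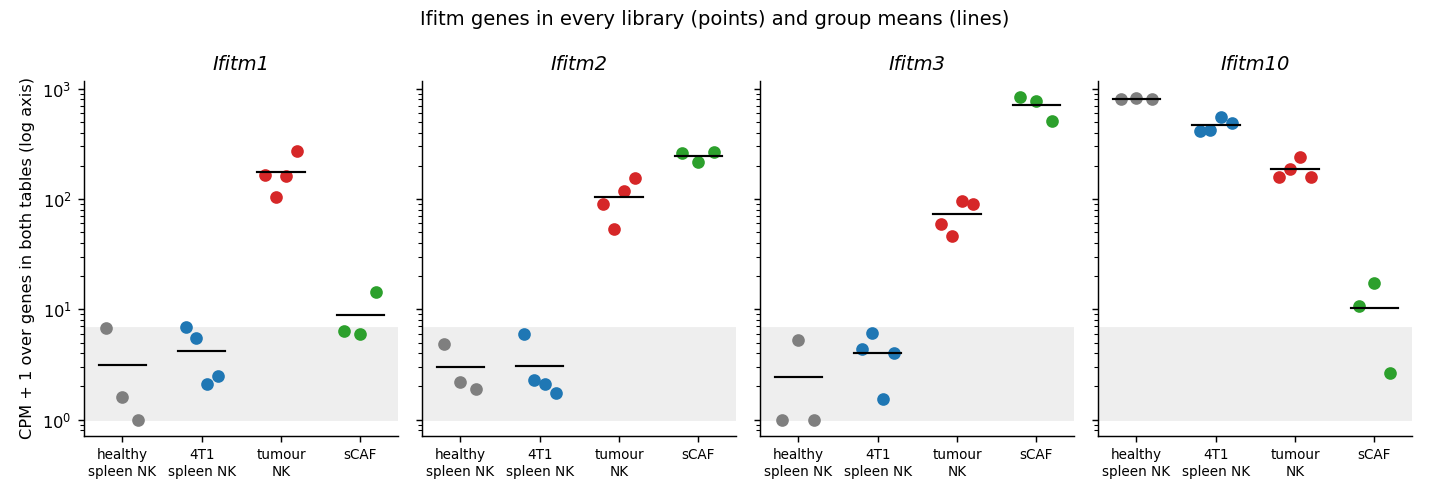
CPM plus 1 over genes listed in both tables, on a log axis, of Ifitm1, Ifitm2, Ifitm3 and Ifitm10 in each of the 14 libraries (points, replicates from left to right) with group means (lines). The grey band reaches the highest limit that a count of 0 allows in any library, 5.83 CPM. The first 3 genes are at or near the band in spleen NK and above it in tumour NK, Ifitm3 and Ifitm2 are highest in sCAFs, and Ifitm10 runs the other way.

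The presence of a tumour elsewhere in the body was compared in spleen NK cells alone, a contrast with no tumour library. With 0 to 8 counts in a library, no fold and no p is given for the 3 genes. They entered the fit through the tumour libraries, and a fit of only the spleen groups gave no value for them. The 95% intervals of the log2 difference in the fit over all libraries were wide, from -1.32 to 3.92 for Ifitm1, -1.87 to 2.53 for Ifitm2 and -1.46 to 2.49 for Ifitm3. A difference of several-fold in the spleen was therefore not detectable at this depth.

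Ifitm10, a distant member of the family that is not known as an antiviral factor, moved the opposite way. Its counts were 413, 1367 and 913 in healthy spleen NK, 491, 659, 1005 and 659 in 4T1 spleen NK, and 196, 124, 412 and 169 in tumour NK. In CPM the healthy spleens ranged from 802.8 to 827.4, the 4T1 spleens from 410.7 to 548.3 and the tumours from 156.1 to 238.7. The 3 groups did not overlap and fell in that order, and the share of all genes that fell without overlap is not given here. Of all genes tested, 13.2% were called lower in tumour NK than in 4T1 spleen NK and 14% lower than in healthy spleen NK. The log2 fold change of tumour NK was -1.21 against 4T1 spleen NK (SE 0.16; edgeR adjusted p = 1.23e-05) and -1.91 against healthy spleen NK (SE 0.17; edgeR adjusted p = 8.72e-08). In 4T1 spleen NK Ifitm10 was also lower than in healthy spleen NK, with a log2 fold change of -0.71 (SE 0.17; edgeR adjusted p = 0.0353). In that contrast 1.58% of the genes tested passed. The call was lost, at adjusted p of 0.0509 to 0.169, on leaving out any one of 4T1 spleens 1 and 2, healthy spleens 2 and 3 or tumours 2 and 4, and at 0.0542 with only these groups fitted. With the side of the spleen split as a block the log2 fold change was -0.65 (edgeR adjusted p = 3.65e-05). That split follows the second principal component of these same libraries and no label, so this p may be too small. Ifitm5 and Ifitm6 were listed in the sCAF table only, with 4, 2 and 0 counts of Ifitm5 and 0 counts of Ifitm6 in all 3 libraries (a limit of up to 2.28 CPM of the library total), and Ifitm7 was not analysed here.

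The sCAF libraries showed a different member on top. Ifitm3 had counts of 1727, 932 and 616 in the 3 sCAF libraries, or 836.5, 767.9 and 508.3 CPM, with a mean of 704.2 ± 173.1 (SD, n = 3). Ifitm2 had counts of 534, 259 and 322, or 258.7, 213.4 and 265.7 CPM, with a mean of 245.9 ± 28.38 (SD, n = 3). Ifitm1 had counts of 11, 6 and 16, or 5.33, 4.94 and 13.2 CPM, with a mean of 7.82 ± 4.66 (SD, n = 3). For Ifitm2 and Ifitm3 every sCAF library was above every tumour NK library. For Ifitm1 every tumour NK library was above every sCAF library, and the sCAF and 4T1 spleen ranges overlapped. The tables were counted and filtered separately, so these levels are set side by side with no test.

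The make-up of the family within a library does not depend on how libraries are scaled. Ifitm1 held 52.6%, 51.5%, 43.4% and 52.9% of the summed Ifitm1, Ifitm2 and Ifitm3 counts in the 4 tumour NK libraries, with exact Clopper-Pearson 95% intervals reaching from 39.5% to 60.2%. In the sCAF libraries it held 0.484%, 0.501% and 1.68%, with intervals reaching from 0.184% to 2.71%. Ifitm3 showed the reverse, with 18.7%, 22.4%, 25.3% and 17.2% in tumour NK and 76.0%, 77.9% and 64.6% in sCAFs. Ifitm2 held a similar share in both, 26.1% to 31.3% in tumour NK and 21.6% to 33.8% in sCAFs. The order was Ifitm1, Ifitm2, Ifitm3 in 4 of 4 tumour NK libraries and the exact reverse in 3 of 3 sCAF libraries. Between Ifitm2 and Ifitm3 the counting intervals overlapped in tumour NK replicates 2 and 3, so the order of this pair is not firm there. In the spleens the counts were too few to set an order: pooled over libraries, Ifitm1 held 18 of 46 counts in 4T1 spleen NK (39.1%, 25.1% to 54.6%) and 4 of 16 in healthy spleen NK (25%, 7.27% to 52.4%). Intervals cover counting error only.

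**Figure D2:**
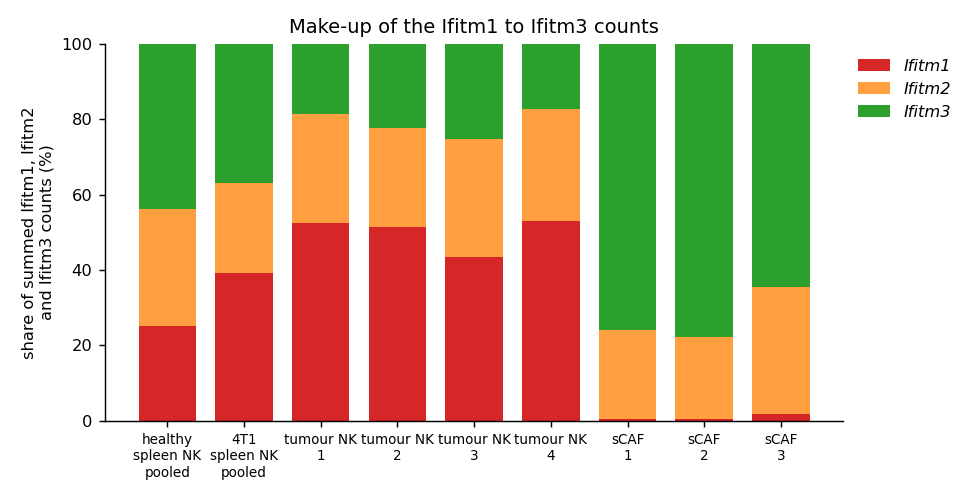
Share in percent of the summed Ifitm1, Ifitm2 and Ifitm3 counts held by each gene (stacked bars), pooled over libraries for the spleen groups, which hold 16 and 46 counts in all, and per library for tumour NK and sCAF. Ifitm1 takes 43.4% to 52.9% in tumour NK and at most 1.68% in sCAF.

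Near-identical sequences limit comparisons between the genes. Of the 50-base words in the last 500 bases of the longest coding transcript, 41.9% of those of Ifitm2 also occurred in transcripts of other genes, namely Ifitm3 and 6 predicted genes whose names start with Gm. The share was 11.8% for Ifitm1 and 14% for Ifitm3. How reads that match several places were counted is not given in the sources used here, and the level of Ifitm2 in particular is uncertain for that reason.

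Levels in tumour NK were next set against levels in sCAFs, since both cell types came from tumours. The mean tumour NK level was 2240% of the mean sCAF level for Ifitm1, 42.0% for Ifitm2 and 10.2% for Ifitm3. The value for Ifitm1 was 3410% without sCAF replicate 3. Of the 22 fibroblast markers 7 were listed in the NK table, and Col1a1 was not among them. Col1a2, a chain of type I collagen, had 48 counts over the 4 tumour NK libraries and a level of 9.38 CPM, which is 2.68% of its sCAF level. Col3a1, the chain of type III collagen, had 16 counts and 1.41%, or 0.504% without tumour NK replicate 1. Sparc, a matrix protein, had 21 counts and 0.429%, and Fn1, fibronectin, had 22 counts and 0.141%. The highest percentage among the 7 was 5.47%, for Tagln, a smooth muscle and myofibroblast gene. Its sCAF level rested largely on replicate 3, and without that library its percentage was 10.0%. Bgn went from 2.31% to 1.52% without tumour NK replicate 1, and Serpinf1 from 3.08% to 1.58% without tumour NK replicate 3. Spleen NK libraries were not at 0 for these genes, with means of 4.97 CPM for Col1a2, 3.63 CPM for Col3a1, which was above its tumour mean of 3.03 CPM, and 4.02 CPM for Sparc against 4.73 CPM in tumour NK.

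A fixed percentage of sCAF RNA brings each gene at that percentage of its sCAF level. At the 2.68% of Col1a2, sCAF RNA would hold 0.21 CPM of Ifitm1, 6.6 CPM of Ifitm2 and 18.9 CPM of Ifitm3, which are 0.12%, 6.4% and 26.4% of the measured tumour NK levels. At the 5.47% of Tagln these shares were 0.244%, 13.0% and 53.9%. Without sCAF replicate 3 the Tagln-based shares were 0.294%, 22.9% and 112.0%, the last above the measured level of Ifitm3. Tagln had 21 counts over the tumour NK libraries, with 5.015 CPM there and 2.848 CPM in the spleens. At the 0.141% of Fn1, the marker with the highest sCAF level, the shares were 0.00628%, 0.335% and 1.38%. Carry-over itself was not tested. At the 0.429% of Sparc the shares were 0.0191%, 1.02% and 4.22%. The spleen levels of the markers were not subtracted. Among genes listed in both tables, apart from the Ifitm genes, 87 had a mean of at least 100 CPM in sCAFs and under 5 CPM in the spleens. The set holds 5 of the 7 markers above. Genes listed only in the sCAF table, such as Krt18, Wfdc2 and Col6a1, could not enter it. Genes with the fewest tumour NK counts may therefore be missing, which would raise the percentages of the set. The median percentage of the 87 genes was 2.03%, with quartiles of 0.581% and 4.01%. Of these 87 genes, 8 had a higher percentage than Ifitm3 and 3 a higher one than Ifitm2, namely Maff at 111.0%, Prnp at 76.9% and Upp1 at 49.7%, which are named after their values were seen. Ifitm1 could not be in this set, with its low sCAF level.

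**Figure D3:**
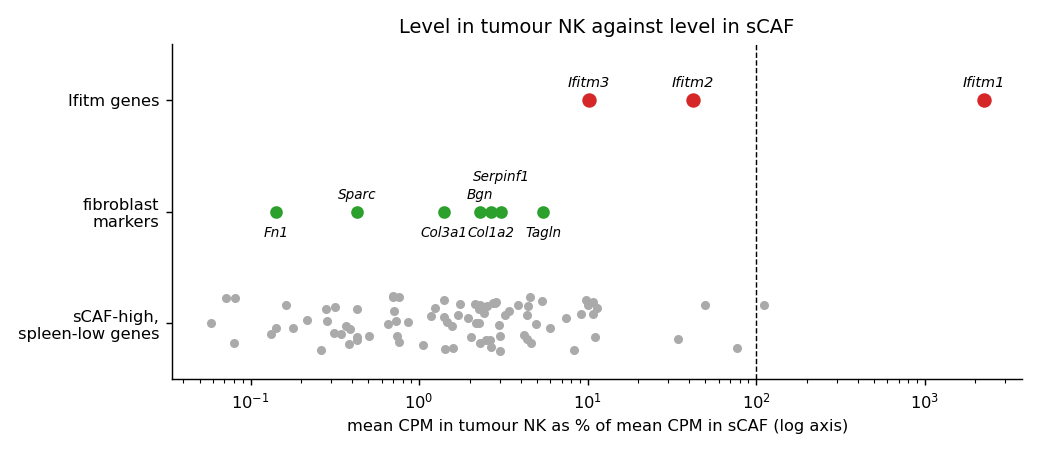
Mean CPM in tumour NK (4 libraries) as a percentage of mean CPM in sCAF (3 libraries), on a log axis, for Ifitm1, Ifitm2 and Ifitm3, for the 7 fibroblast markers listed in both tables, and for 87 genes of at least 100 CPM in sCAF and under 5 CPM in spleen NK, 5 of which are also among the markers (vertical scatter is for display). The 87 genes were also listed in both tables. The dashed line marks equal levels. Ifitm1 is at 2240%, Ifitm2 at 42.0% and Ifitm3 at 10.2%, and the markers are at 0.141% to 5.47%.

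Markers of other cells also differed between tumour and spleen libraries. The 5 listed neutrophil markers of 12 summed to 56.61 to 153.0 CPM of the library total in tumour NK and 1.40 to 14.25 CPM in the spleens, led by S100a9 at 53.56 CPM and S100a8 at 23.53 CPM in tumour NK. The 8 listed macrophage markers of 12 summed to 40.94 to 233.9 CPM in tumour NK and 10.72 to 28.47 CPM in the spleens, led by Apoe at 31.77 CPM, Cd68 at 18.94 CPM and Lyz2 at 13.12 CPM. C1qb, C1qc and Csf1r were at 0 in at least 1 tumour NK library each. The 7 fibroblast markers summed to 21.05 to 49.44 CPM in tumour NK and 10.1 to 31.54 CPM in the spleens. The 2 listed carcinoma markers of 10, Cdh1 and Epcam, summed to 25.02 to 50.96 CPM in tumour NK and 0.0 to 3.57 CPM in the spleens. Most of the tumour NK sum was Cdh1, with a mean of 39.13 CPM there and 22.5 CPM in sCAFs. Epcam was at 3.77 CPM in tumour NK and 19.31 CPM in sCAFs. Krt8, Krt18 and Wfdc2 were not listed in the NK table. Among the tumour NK libraries, replicate 2 had the highest neutrophil sum and the lowest level of all 3 Ifitm genes. Replicate 3 had the highest macrophage sum, 233.9 CPM, and the highest Ifitm3 level, 94.44 CPM. Its share of Ifitm1 in the summed Ifitm counts, 43.4%, was the lowest. Ifitm1 and Ifitm2 were highest in replicate 4. Without replicate 3 the log2 fold changes against 4T1 spleen NK were 5.97 for Ifitm1, 5.79 for Ifitm2 and 4.56 for Ifitm3. Without replicate 2 they were 6.14, 6.09 and 4.92. Of the remaining marker lists, the 3 listed T cell markers summed to 59.23 to 98.11 CPM in tumour NK and 50.03 to 143.8 CPM in the spleens. The 1 listed endothelial marker, Pecam1, was at 130.5 to 184.6 CPM in tumour NK and 48.24 to 93.04 CPM in the spleens. It was thus present in every NK library, spleens included, and had a mean of 1.81 CPM in sCAFs. The 1 listed B cell marker was at 1.40 to 3.48 CPM in tumour NK and 3.38 to 10.72 CPM in the spleens, the 1 listed dendritic cell marker at 11.32 to 21.3 and 1.79 to 5.44 CPM, and no erythroid marker was listed. The part of other cells in the Ifitm levels was not tested.

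Other genes of the interferon response were higher in tumour NK as well. Of 73 genes on 3 lists, 60 were tested, and 41 rose and 3 fell against 4T1 spleen NK (edgeR quasi-likelihood test, adjusted p under 0.05). Their median log2 fold change was 1.06 beside 0.00 over all genes. Of all 8471 genes tested, 15.8% rose and 13.2% fell in that contrast, and these shares also stand beside the counts of each list below. Against healthy spleen NK, which shares the tumour libraries, 38 list genes rose and 3 fell, beside 16.5% and 14% of all genes tested. Their median was 1.14 beside 0.02. The list genes that fell in both were Tyk2, Oas1b and Apobec3, named after their values were seen. The lists were written with earlier results of these data known and are not independent evidence of a direction.

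Among the 14 signalling genes tested, 10 rose and 1 fell against 4T1 spleen NK. Socs3, a feedback inhibitor of Jak kinases, went from 33.71 to 290.1 CPM (CPM on TMM-scaled library sizes for these genes), a log2 fold change of 3.09 (SE 0.17; edgeR adjusted p = 1.16e-10). Usp18, which restrains the type I interferon receptor, rose by 1.79 and Irf7, an amplifier of type I interferon, by 1.56. Ifngr1, the ligand-binding chain of the interferon gamma receptor, rose by 1.33, from 288.3 to 722.4 CPM. The value of Irf9, a DNA-binding factor of the type I response, was 0.40 with an adjusted p of 0.0456 in edgeR, and this call was lost in 8 of 11 fits that left out 1 library (each of 4T1 spleens 2, 3 and 4, healthy spleens 2 and 3 and tumours 1, 2 and 4). It was also lost in 6 of 8 other alternatives, DESeq2 among them, at adjusted p of 0.0526 to 0.263.

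Of the 29 antiviral effectors tested, 21 rose and 2 fell against 4T1 spleen NK. Isg20, an exonuclease, went from 5.32 to 143.2 CPM, a log2 fold change of 4.69 (SE 0.33; edgeR adjusted p = 2.44e-08). Mx2, a dynamin-like GTPase, rose by 3.6, Ifi44 by 3.58 and Ifit3, which binds other Ifit proteins on viral RNA, by 2.99. Isg15, a ubiquitin-like protein, rose by 2.28, from 41.85 to 202.1 CPM. Bst2, tetherin, which holds budding virus at the membrane, rose by 1.31, from 47.75 to 117.3 CPM (edgeR adjusted p = 0.00473).

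Of the 17 genes tested that are typical of interferon gamma, 10 rose and none fell. Cxcl10, a chemokine that draws T and NK cells, went from 4.91 to 148 CPM, a log2 fold change of 4.93 (SE 0.29; edgeR adjusted p = 5.36e-10). Cd274, which encodes PD-L1, rose by 2.88, from 13.84 to 102.7 CPM. Gbp3 and Gbp5, guanylate-binding proteins, rose by 1.44 and 1.40. In the contrast with healthy spleen NK, Igtp of this list rose by 1.49 on the log2 scale (edgeR adjusted p = 3.12e-06). Gbp3 rose by 1.61, a call lost without healthy spleen 2 (edgeR adjusted p = 0.0529) and with healthy spleen 1 alone. From the other lists, the antiviral effector Ifi27l2a rose by 3.07 and the signalling gene Socs1 by 2.27 in that contrast (edgeR adjusted p of 0.00139 and 6.71e-05). The Socs1 call was also lost with healthy spleen 1 alone.

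In the spleens, 0 of the 60 interferon genes passed edgeR's test between 4T1 and healthy mice, beside 1.58% of the 8471 genes tested. The median log2 fold change of the 60 was 0.04. At an unadjusted p under 0.05 there were 8, beside 951 of the 8471 genes tested. DESeq2 called 2, Socs1 and Ifi27l2a, both higher in 4T1 spleen NK. With the side of the spleen split as a block edgeR called 6: Ifi27l2a, Socs1, Ifngr1 and Bst2 were higher and Apobec3 and Jak1 lower. The split follows the second principal component of these same libraries and no label, so p-values with this block may be too small. The shares of all genes called in the DESeq2 and blocked fits are not given here. Ifngr1 had 288.3 ± 32.6 CPM (SD, n = 4) in 4T1 spleens and 193.3 ± 37.57 CPM (SD, n = 3) in healthy spleens, with an edgeR adjusted p of 0.123 without the block and 0.00353 with it.

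**Figure D4:**
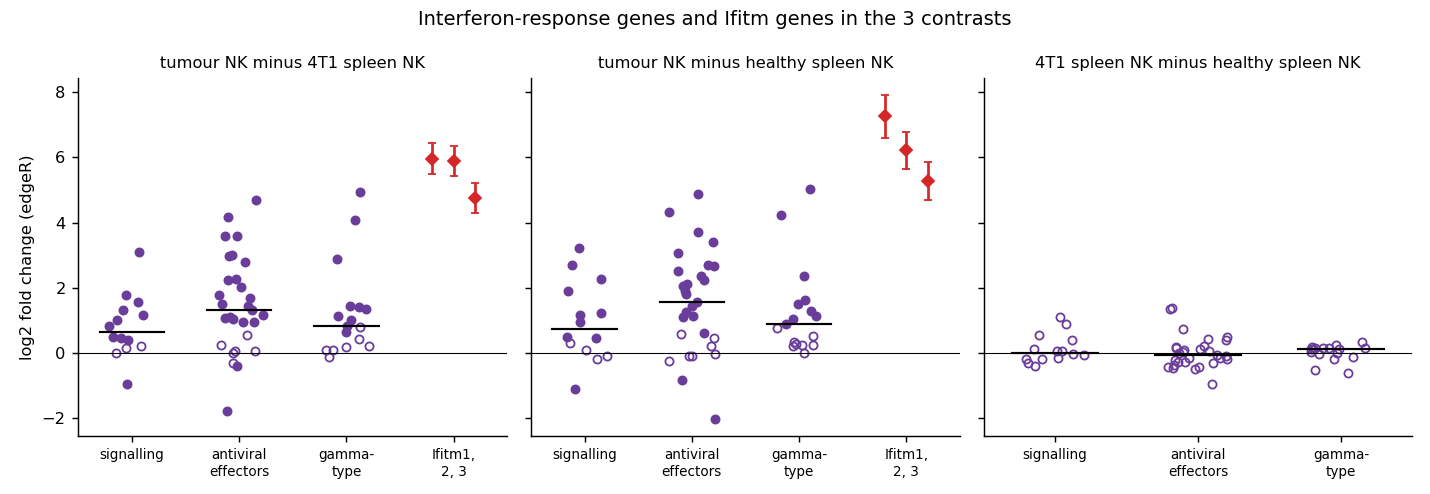
Fitted log2 fold change of each tested gene on the 3 interferon lists (signalling, antiviral effectors, gamma-type) in the 3 contrasts, with filled points for genes called and open points for genes not called, lines at list medians, and Ifitm1, Ifitm2 and Ifitm3 as diamonds with standard errors in the contrasts with tumour NK. Most list genes are above 0 in the 2 tumour contrasts. None is called between the spleens, where 1.58% of all genes tested were called.

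Genes known to act on Ifitm protein were looked at next. The 8 listed genes were Nedd4, a ubiquitin ligase that degrades Ifitm3, the palmitoyltransferase Zdhhc20, the lysine methylation enzymes Setd7 and Kdm1a, the kinase Fyn, the membrane contact protein Vapa, the ATPase Vcp and the membrane protease Zmpste24. Against 4T1 spleen NK 0 of 8 passed edgeR's test and 1 had an unadjusted p under 0.05, beside 29% and 3335 of the 8471 genes tested. Against healthy spleen NK Vcp rose by 0.44 (edgeR adjusted p = 0.0229), a call lost on leaving out healthy spleen 2, healthy spleen 3 or tumour 3 and in 3 of 8 other alternatives (adjusted p of 0.0691 to 0.404).

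Interferon genes were also present in the sCAF libraries, with no test across the tables. The tumour NK level was 1070% of the sCAF level for Ifngr1, 387.0% for Irf7, 108.0% for Isg15, 54.6% for Irf9 and 31.3% for Bst2. Ifitm3 at 10.2% lay below all 5 of these genes and Ifitm1 at 2240% above them.

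Finally, the genes whose pattern over the 11 NK libraries was most like that of each Ifitm gene were listed by Pearson's r of log2(CPM + 1). Since the libraries fall into a tumour set and a spleen set, r mainly measures how closely a gene shares that step, and it is given as a description with no p. For Ifitm1 the 5 genes were Upp1 (r = 0.993), a uridine phosphorylase, Ctla4 (0.992), an inhibitory receptor, Gzmc (0.990), a granzyme, Rgs1 (0.989), a regulator of G protein signalling, and Gzmd (0.988), another granzyme. Ifitm2 was closest to Gzmd (0.991), Ifitm1 (0.985), Gzmf (0.983), Riok1 (0.982) and Ctla2b (0.981). Ifitm3 was closest to Serpinb9 (0.979), an inhibitor of granzyme B, then Maff (0.970), Pmepa1 (0.969), Rabgef1 (0.967) and Ifi202b (0.964).

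These neighbours differed widely in level. Gzmc went from 14.63 CPM in 4T1 spleen NK to 765.4 CPM in tumour NK, Ctla4 from 2.07 to 104.1 CPM and Gzmd from 0.90 to 55.29 CPM. Serpinb9, by contrast, was already at 223 CPM in 4T1 spleen NK and reached 412.7 CPM. Among all genes ranked, Ifitm2 was the ninth most like Ifitm1, with r = 0.985, while Ifitm3 came at rank 264 for Ifitm1 (r = 0.934) and rank 277 for Ifitm2 (r = 0.926). Over these 11 libraries r was higher between Ifitm1 and Ifitm2 than between either of them and Ifitm3. The few spleen counts of these genes limit this comparison, and no interval was set on r.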

How the data were processed

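Bulk 3' end RNA counts of 11 NK and 3 sCAF libraries were used. The authors deposited raw counts per gene symbol in 2 tables, and per the submitters' processing notes the tools include bcl2fastq, STAR 2.4.2a and HTSeq with build mm10; their settings, the annotation and any use of molecular identifiers are not given in the sources used here. Every gene listed in the NK table reached at least 6 counts in some library. In each header spaces stood in place of a tab, so columns were read by position. NK replicates are called independent in the series' design text, and p-values measure the spread between these libraries.

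NK counts were fitted in edgeR 4.0.16 (R 4.3.3) with filterByExpr, TMM scaling and robust quasi-likelihood over all 11 libraries, and p-values were adjusted by Benjamini-Hochberg over 8471 genes in each of 3 contrasts, with a threshold of 0.05. The fit was tested on simulated data. DESeq2 1.42.0, other scalings, no filter, blocks and left-out libraries were alternatives. Levels across the tables are CPM over shared genes, and count ratios and shares have exact 95% intervals (SciPy 1.17.1). The floor for 0 counts is 3 counts per library. Named list genes are up to 4 called genes per list and contrast with the largest change and a lower group mean of at least 3 counts, plus Irf7, Irf9, Isg15, Bst2, Ifngr1 and 1 gene that is not reported here. Named markers are the highest of a list in tumour NK plus collagen genes and Sparc. The Ifitm genes, lists and rules were chosen with earlier results of these data known.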

Additional observations from a re-analysis of the deposited data

Results flagged for a closer look

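In groups of 4 libraries, a library far from the other 3 was looked for in 68 sets of values (genes named above and marker sums), of which 8 showed one; chance alone gives about 1 in 20. Ifitm2 in 4T1 spleen NK had one library, replicate 1, at 4.573 CPM (TMM-scaled), the others at 0.7232 to 1.116 CPM, a difference of 6 counts from 1 or 2. Gbp3 in tumour NK was at 205.8 CPM in replicate 2 and 128.4 to 134.4 CPM in the others. Among marker sums in tumour NK, replicate 3 stood apart for macrophage markers (233.9 CPM, the others 40.94 to 54.74), carcinoma markers (25.02 CPM, the others 47.72 to 50.96) and NK markers (24340 CPM, the others 21620 to 21840). Replicate 2 stood apart for neutrophil markers (153.0 CPM, the others 56.61 to 70.16) and replicate 1 for the single listed dendritic cell marker, Zbtb46 (21.3 CPM, the others 11.32 to 12.63). In 4T1 spleen NK, replicate 4 had the lowest sum of NK markers (28460 CPM, the others 31380 to 31740).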

How the results depend on the processing

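Ifitm1, Ifitm2 and Ifitm3 were higher in tumour NK under every alternative run, and their log2 fold changes moved most with the choice of spleen libraries. With 4T1 spleens 1 and 2 alone that of Ifitm1 was 5.28, and with 4T1 spleens 3 and 4 alone the values were 7.09, 6.73 and 5.52. With healthy spleen 1 alone they were 5.24, 5.06 and 9.49, and with healthy spleens 2 and 3 alone that of Ifitm1 was 8.75. With 1 library left out they ranged from 5.61 to 6.29, 5.63 to 6.62 and 4.34 to 5.18 against 4T1 spleen NK, and from 6.69 to 8.75, 5.96 to 6.64 and 4.74 to 9.59 against healthy spleen NK. Healthy spleens 1 and 3 held 0 Ifitm3 counts, so the values 9.49 and 9.59 rest on no measured spleen level. Few spleen counts limit all of these log2 fold changes, and fits of the spleen groups alone gave no value for the 3 genes. Leave-outs of Bgn, Fn1, Serpinf1 and Tagln as percentages of sCAF were added after seeing the data. Whether replicate numbers pair the samples is not given in the labels and was not settled by the values. Correlations of same-numbered tumour and 4T1 spleen libraries were -0.0471, 0.288, 0.0025 and 0.211. Those of unlike-numbered libraries ran from -0.252 to 0.158. With the replicate block the log2 fold changes were 5.86, 5.80 and 4.74 against 4T1 spleen NK, and the calls of interferon genes went from 44 to 45. The count of interferon genes called between the spleens, 0, became 2 in DESeq2, 1 with only the 2 groups compared, 1 with the replicate block, 6 with the side of the split as a block, and 0 to 1 with 1 library left out (1 without tumour 3 or tumour 4, Socs1 in both). The shares of all genes called in the alternative fits are not given here, so these counts have no background beside them. The cause was not tested, and the side of the split follows a component of these same libraries. Of 37 calls of named genes, 29 held in every alternative run. Library totals in place of TMM moved the median of all genes by -0.12 against 4T1 spleen NK and -0.20 against healthy spleen NK, and 38 interferon genes then rose and 4 fell against 4T1 spleen NK.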
